A study of Mus musculus with 4 samples.

Results

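The NR4A family of nuclear receptors has 3 members in the mouse, Nr4a1, Nr4a2 and Nr4a3. Their rows were taken by symbol from the count matrices, and all 3 were found among the 32286 features of each library. Nr4a1 (ENSMUSG00000023034) lies on chromosome 15 at 101254269 to 101274795 on the plus strand (GRCm38). Nr4a2 (ENSMUSG00000026826) lies on chromosome 2 at 57106830 to 57124003 on the minus strand. Nr4a3 (ENSMUSG00000028341) lies on chromosome 4 at 48045153 to 48086447 on the plus strand. All are protein-coding genes whose exons cover 17.1%, 23.6% and 14.5% of their length in the order of their numbers. They had 2274 to 2723 (Nr4a1), 298 to 480 (Nr4a2) and 436 to 606 (Nr4a3) UMIs per library over all barcodes.

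RNA of single nuclei was counted in the primary motor area of C57BL/6N mice, in 4 libraries with 1 library per group. Mice of the Sleep-deprivation library were kept awake by gentle handling, and mice of the Ad-lib-sleep library were not deprived of sleep. The AAV-SIK3-Ex13del library came from mice given, locally, an AAV8 vector in which the synapsin promoter hSyn drives FLAG-tagged SIK3 with the Ex13del mutation, which the series text calls a gain of function, and the AAV-SIK3-WT library from mice given the same vector with wild-type SIK3. The promoter is used to restrict expression to neurons, both AAV groups share the injection and the vector, and the other libraries carry neither; ages, the length of the deprivation and the number of mice behind a library are not given in the sources used here.

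The libraries held between 43655557 and 54070503 UMIs (unique molecular identifiers, which count captured RNA molecules) in 5944 to 9438 barcodes, and 9 to 16 barcodes were shared by any pair of libraries. After filtering, 5333, 8251, 5524 and 6337 nuclei were kept in the Sleep-deprivation, Ad-lib-sleep, AAV-SIK3-Ex13del and AAV-SIK3-WT libraries. Excitatory nuclei were deepest in the Sleep-deprivation library, with a median of 13346 UMIs against 7242 in the Ad-lib-sleep library, and the AAV-SIK3-Ex13del and AAV-SIK3-WT libraries had 9681 and 8992. The same library held 1454 of 3336 nuclei of an unnamed cluster with a median of 998.5 UMIs. The tissue is labelled cerebral cortex, but 1168 nuclei carried the markers of striatal projection neurons, so the dissections also took in striatum. A sequence of the vector had UMIs in 25.2% of excitatory nuclei in the AAV-SIK3-Ex13del library and 20.6% in the AAV-SIK3-WT library, but also in 18.0% and 17.9% of astrocytes, and it had no UMI in excitatory nuclei of the other libraries. A vector UMI therefore does not mark a nucleus as transduced. Levels are given as CPM, the UMIs of the gene scaled to the total UMIs of the nuclei in question, with exact 95% Poisson intervals in parentheses, and ratios and shares have exact 95% intervals; all cover counting error only. With 1 library per group no difference between libraries could be tested, and each one below is a description of a pair of libraries.

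NR4A proteins are orphan nuclear receptors: their ligand pocket is closed, so their output follows how much of them a cell makes. Their genes are switched on within minutes by calcium and cAMP signals, largely through the transcription factor CREB and its CRTC coactivators, and in neurons they are counted among the immediate early genes. Salt-inducible kinases such as SIK3 phosphorylate CRTCs and class IIa histone deacetylases and hold them in the cytoplasm. The receptors bind DNA alone at the NGFI-B response element, and Nr4a1 and Nr4a2 also pair with retinoid X receptors. Nr4a2, also called Nurr1, is needed to make midbrain dopamine neurons and marks deep cortical cells of layer 6b and the claustrum. Nr4a1 (Nur77) and Nr4a3 (NOR-1) are best known in the brain from responses to stimulation, learning and dopamine signalling in striatum.

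CREB binds the cAMP response element and its half-site, so the RefSeq promoters of the 3 genes (GRCm38.p6, 250 bases before to 50 after the annotated start) are shown with each half-site, TGACG or its reverse complement CGTCA, in capitals. The Nr4a1 promoter lies at chr15:101266596-101266895 on the plus strand, at a start inside the gene's annotated span, the Nr4a2 promoter at chr2:57123954-57124253 on the minus strand and the Nr4a3 promoter at chr4:48045055-48045354 on the plus strand.
Nr4a1: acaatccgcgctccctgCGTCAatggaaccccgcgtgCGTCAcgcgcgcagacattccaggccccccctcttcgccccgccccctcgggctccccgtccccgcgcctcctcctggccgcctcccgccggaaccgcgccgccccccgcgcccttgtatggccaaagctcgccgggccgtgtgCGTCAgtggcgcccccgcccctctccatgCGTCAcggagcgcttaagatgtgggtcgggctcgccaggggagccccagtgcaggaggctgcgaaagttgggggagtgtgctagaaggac
Nr4a2: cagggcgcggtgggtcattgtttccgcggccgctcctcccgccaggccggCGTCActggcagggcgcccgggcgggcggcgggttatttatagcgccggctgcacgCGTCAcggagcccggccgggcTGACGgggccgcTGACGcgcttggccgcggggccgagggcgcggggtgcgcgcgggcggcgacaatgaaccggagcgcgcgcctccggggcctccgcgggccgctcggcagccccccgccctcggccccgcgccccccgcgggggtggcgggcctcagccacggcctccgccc
Nr4a3: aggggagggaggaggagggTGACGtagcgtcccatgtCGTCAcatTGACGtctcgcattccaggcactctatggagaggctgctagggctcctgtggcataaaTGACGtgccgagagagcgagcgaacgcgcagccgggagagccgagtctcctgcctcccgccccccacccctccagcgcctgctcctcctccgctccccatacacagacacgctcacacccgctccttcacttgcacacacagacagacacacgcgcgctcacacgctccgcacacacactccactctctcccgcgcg

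Each of the 3 promoters held 4 half-sites. In Nr4a1 all 4 lay on the strand opposite to the gene, at 233, 213, 69 and 40 bases before the start. In Nr4a2 they lay 200, 144, 123 and 111 bases before the start, and in Nr4a3 231, 213, 205 and 147 bases before it. Of 32851 promoters of the same length, 20.8% held at least 1 half-site and 0.231% (76 promoters) held at least 4, counting both strands and overlapping matches. The 3 windows are rich in G and C (72.3%, 81.7% and 64.7% against a median of 52.7%). Among the 9690 promoters with at least 60% G and C, 31.6% held at least 1 half-site and 0.557% held at least 4. The full element TGACGTCA, found in 1.79% of all promoters, and the NGFI-B response element AAAGGTCA, found in 1.51%, were not present in these windows. None of the promoters matched for the gene lists used below held 4 half-sites, and at least 1 was present in 11 of 14 rapid immediate early genes, 11 of 16 CREB and CRTC target genes, 7 of 17 SIK pathway regulators, 2 of 7 retinoid X receptor partners, 3 of 11 chaperones, 3 of 8 dopaminergic genes and 8 of 20 other nuclear receptors. A match of letters is a description and does not show binding.

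**Figure D1:**
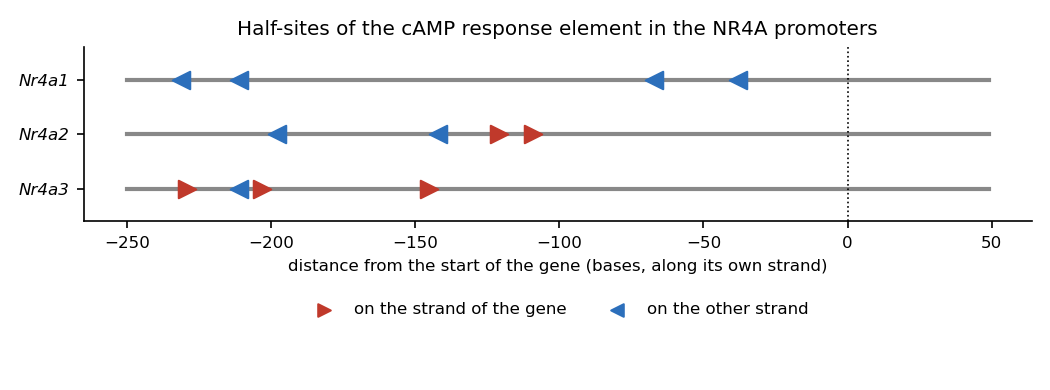
Half-sites of the cAMP response element in the 3 NR4A promoters; the x axis is the distance from the annotated start in bases along the strand of the gene, red marks are on that strand and blue marks on the other. Each promoter holds 4 half-sites, all of them upstream of the start.

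The 3 receptors had different layer patterns among 14 neuron subclasses. The cortical pattern of each was broadly similar in the 4 libraries, while Nr4a1 and Nr4a3 levels in the striatal subclasses varied widely between them. Nr4a1 was a gene of all excitatory neurons with its highest level in layer 5, and Nr4a2 was concentrated in layer 6b. By its means Nr4a3 was highest in near-projecting neurons and in layer 6. Subclasses are clusters that resemble the named type by its markers, and the 3 members took no part in the clustering. Levels below are compared between subclasses for 1 gene at a time.

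Nr4a1 was highest in layer 5 extratelencephalic neurons, the cells that project to brainstem and spinal cord. They had 98.6 CPM in the Sleep-deprivation library, 101 in the Ad-lib-sleep library, 98.4 in the AAV-SIK3-Ex13del library and 85.7 in the AAV-SIK3-WT library. The mean of 95.8 CPM was 1.24 times that of layer 5 intratelencephalic neurons (77.1 CPM, 67.6 to 92.1 over the libraries). The ranges of these neighbours overlapped, but layer 5 extratelencephalic neurons were the higher in each of the 4 libraries. Next came layer 6b (74.3 CPM, 64.0 to 81.0), layer 6 corticothalamic neurons (71.5 CPM, 64.2 to 84.7), layer 4/5 intratelencephalic neurons (69.0 CPM, 60.3 to 80.3) and layer 5/6 near-projecting neurons (66.1 CPM, 55.6 to 85.2). These 4 did not differ from each other beyond the spread over the libraries. Below a gap without overlap lay layer 2/3 intratelencephalic neurons (49 CPM, 45.1 to 53.2), close to layer 6 intratelencephalic neurons (48.4 CPM, 35.2 to 60.7). Inhibitory subclasses were lower, with 32.5 CPM in Vip, 31.3 CPM in Lamp5 and Sncg, 25.8 CPM in Sst and 18.5 CPM in Pvalb interneurons. The striatal subclasses had means of 36.3 CPM (D2) and 28 CPM (D1) and the widest ranges.

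Nr4a2 was a layer 6b gene. Layer 6b neurons, the deepest cortical layer and a remnant of the subplate, had 103 CPM (82.1 to 128) in the Sleep-deprivation library, 90.6 (72.4 to 112) in the Ad-lib-sleep library, 81.5 (61.4 to 106) in the AAV-SIK3-Ex13del library and 84.6 (62.1 to 112) in the AAV-SIK3-WT library, over 50, 111, 59 and 62 nuclei. No other subclass reached this range in any library, and the mean of 89.9 CPM was 6.42 times that of the next. Layer 6 intratelencephalic neurons followed with 14.0 CPM (4.22 to 23.4) and layer 6 corticothalamic neurons with 12.2 CPM (8.54 to 15.5), a pair whose ranges overlapped. Pvalb interneurons came next at 5.70 CPM (3.30 to 7.42), a range below that of layer 6 corticothalamic neurons but overlapping that of layer 6 intratelencephalic neurons, and the other 10 subclasses had means of 0.646 to 4.32 CPM. By its means Nr4a2 was highest in layers 6b and 6, with layer 2/3 at 2.87 CPM and layer 5 intratelencephalic neurons at 2.01 CPM.

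By the mean of the 4 libraries, Nr4a3 was highest in layer 5/6 near-projecting neurons, deep cells whose axons stay local. They had 35.3 CPM in the Sleep-deprivation library, 32.7 in the Ad-lib-sleep library, 32.1 in the AAV-SIK3-Ex13del library and 26.7 in the AAV-SIK3-WT library. Layer 6b (26.5 CPM, 16.1 to 32.6), layer 6 intratelencephalic (22.8 CPM, 11.6 to 28.9) and layer 6 corticothalamic neurons (16.9 CPM, 10.8 to 21.5) followed, each overlapping the next. Their order was kept in most libraries: near-projecting neurons exceeded layer 6b in 3 of 4, and layer 6b exceeded layer 6 intratelencephalic neurons, and these layer 6 corticothalamic neurons, in 4 of 4. D1 striatal neurons (13.6 CPM, 1.35 to 36.2), layer 5 extratelencephalic neurons (13.6 CPM, 11.1 to 17.7) and D2 striatal neurons (12.7 CPM, 3.48 to 27.4) had intermediate means. In the Sleep-deprivation library, however, D1 striatal neurons stood slightly above near-projecting neurons, at 36.2 against 35.3 CPM. Layer 5, layer 2/3 and layer 4/5 intratelencephalic neurons had 7.09, 5.92 and 4.75 CPM, and the interneurons 2.49 to 7.98 CPM.

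**Figure D2:**
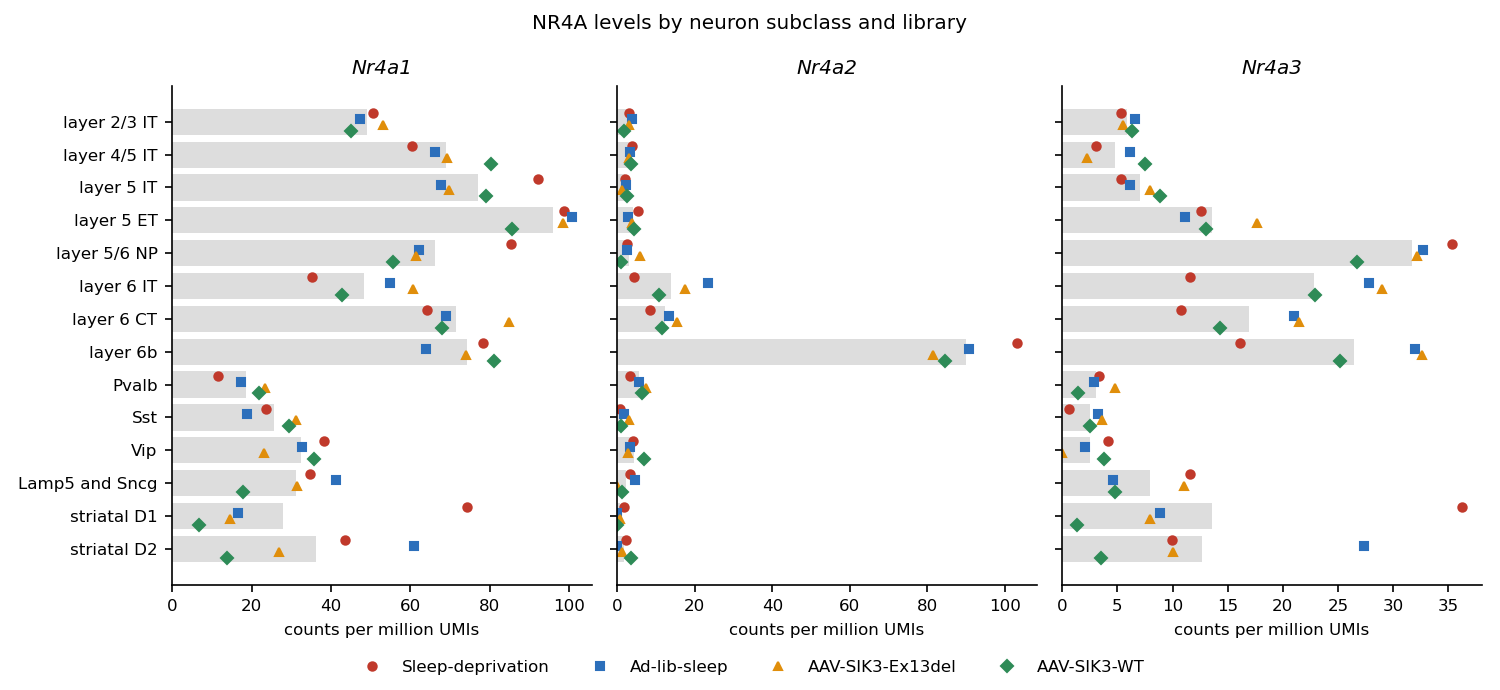
Levels of Nr4a1, Nr4a2 and Nr4a3 in CPM on the x axis by neuron subclass; bars are means over the 4 libraries and points single libraries. Nr4a2 stands at 81.5 to 103 CPM in layer 6b and at 23.4 CPM or less in the other subclasses, while Nr4a1 is spread over the excitatory subclasses.

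Shares of nuclei with at least 1 UMI depend on depth, so nuclei were also thinned to 2000 UMIs each and compared with astrocytes, where a UMI may come from free RNA. Of excitatory nuclei, 50.3% in the Sleep-deprivation library and 33.8% in the Ad-lib-sleep library had a Nr4a1 UMI as deposited. After thinning, the shares were 12% and 11.3%, and 13.2% in the AAV-SIK3-Ex13del and 12% in the AAV-SIK3-WT library. Astrocytes had 0.539% to 2.33% (median depth 2270 to 3510.5 UMIs before thinning). The share of layer 6b nuclei with a Nr4a2 UMI was 48.0%, 37.8%, 37.3% and 40.3% as deposited in the Sleep-deprivation, Ad-lib-sleep, AAV-SIK3-Ex13del and AAV-SIK3-WT libraries, and 14.9%, 15.6%, 8.62% and 15% after thinning, where astrocytes had at most 0.809%. For Nr4a3 in near-projecting neurons the thinned share was 6.58%, 5.26%, 7.14% and 3.45% in the same order, against at most 0.664% of astrocytes. Thinned Nr4a2 shares in layer 5 intratelencephalic neurons were at most 0.709%, no higher than in astrocytes, and are read as background.

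Across the 14 subclasses the 3 members resembled each other only in part. Pearson's r of their log2 levels, averaged over the 4 libraries, was 0.44 between Nr4a1 and Nr4a2, 0.56 between Nr4a1 and Nr4a3, and 0.46 between Nr4a2 and Nr4a3. Of 10085 genes, those most like Nr4a1 included Wdr90, R3hdm2, 1110008P14Rik and C77080 (r of 0.92 to 0.91). Those most like Nr4a2 were Ank, Otulin, Zdhhc9, the prohormone-processing enzyme Cpe and Gm10558 (0.86 to 0.84). Those most like Nr4a3 were Ift57, the kinase Rock2, Aph1b, Rab26 and Cwh43 (0.90 to 0.86). All 5 genes like Nr4a2 also peaked in layer 6b, which their choice by likeness to Nr4a2 favours. These values describe 14 points that share the same libraries.

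Within excitatory neurons, Nr4a2 and Nr4a3 were often found in the same nuclei. Among 8703 excitatory nuclei thinned to 5000 UMIs, Nr4a3 was detected in 20.8% (16.2 to 26.0) of the 279 nuclei with Nr4a2 and in 4.74% (4.29 to 5.21) of the nuclei without it. Read from the other side, Nr4a2 was detected in 12.7% (9.78 to 16.1) of the 457 nuclei with Nr4a3 and in 2.68% of those without. The ratio of the Nr4a3 shares was 4.39, where the median ratio over 12159 genes was 0.996 and the 95th percentile 1.36. Nr4a1 was detected in 35.5% of nuclei with Nr4a2 against 26.1% of those without, and in 34.8% of nuclei with Nr4a3 against 25.9% of those without.

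Shared detection of Nr4a2 and Nr4a3 was also seen inside single subclasses. In layer 6 corticothalamic neurons Nr4a3 was detected in 26.8% (18.3 to 36.8) of nuclei with Nr4a2 and in 6.05% of those without. In layer 6 intratelencephalic neurons the shares were 30.2% (17.2 to 46.1) and 9.0%. In layer 6b, where Nr4a2 is common, they were 18.5% (9.92 to 30.03) and 12% (7.40 to 18.1), with overlapping intervals. By library, the shares of nuclei with and without Nr4a2 were 9.43% and 3.76% in the Sleep-deprivation library, and 37.8% and 4.43% in the Ad-lib-sleep library. They were 18.2% and 5.34% in the AAV-SIK3-Ex13del library and 10% and 5.36% in the AAV-SIK3-WT library. The nuclei with Nr4a2 had the higher share in each of the 4 libraries, and the Ad-lib-sleep library gave 34 of the 58 nuclei that held both. The shares of the other libraries thus rest on few nuclei with both genes, and no difference within a library was tested.

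Each receptor was also compared between nuclei with and without an immediate early gene. Fos, the classic marker of recent activity, was detected in 262 nuclei, and Nr4a3 was detected in 14.9% (10.8 to 19.8) of them and in 4.95% of the others. For Nr4a2 the shares were 9.92% (6.59 to 14.2) with Fos and 3.0% without, and for Nr4a1 41.6% (35.6 to 47.8) with Fos and 25.9% without. With Npas4, an activity-dependent transcription factor, the shares were 11.6% against 4.79% for Nr4a3, 7.65% against 2.88% for Nr4a2 and 36.9% against 25.6% for Nr4a1. Per library, the Nr4a3 share with and without Fos was 16.7% and 3.57% in the Sleep-deprivation, 20.5% and 5.05% in the Ad-lib-sleep, 15.3% and 5.41% in the AAV-SIK3-Ex13del, and 5.08% and 5.51% in the AAV-SIK3-WT library. In the AAV-SIK3-WT library, where 3 of 59 nuclei with Fos held Nr4a3, the shares lay within each other's intervals. Nuclei of 1 library are not replicates, and these shares have no test.

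**Figure D3:**
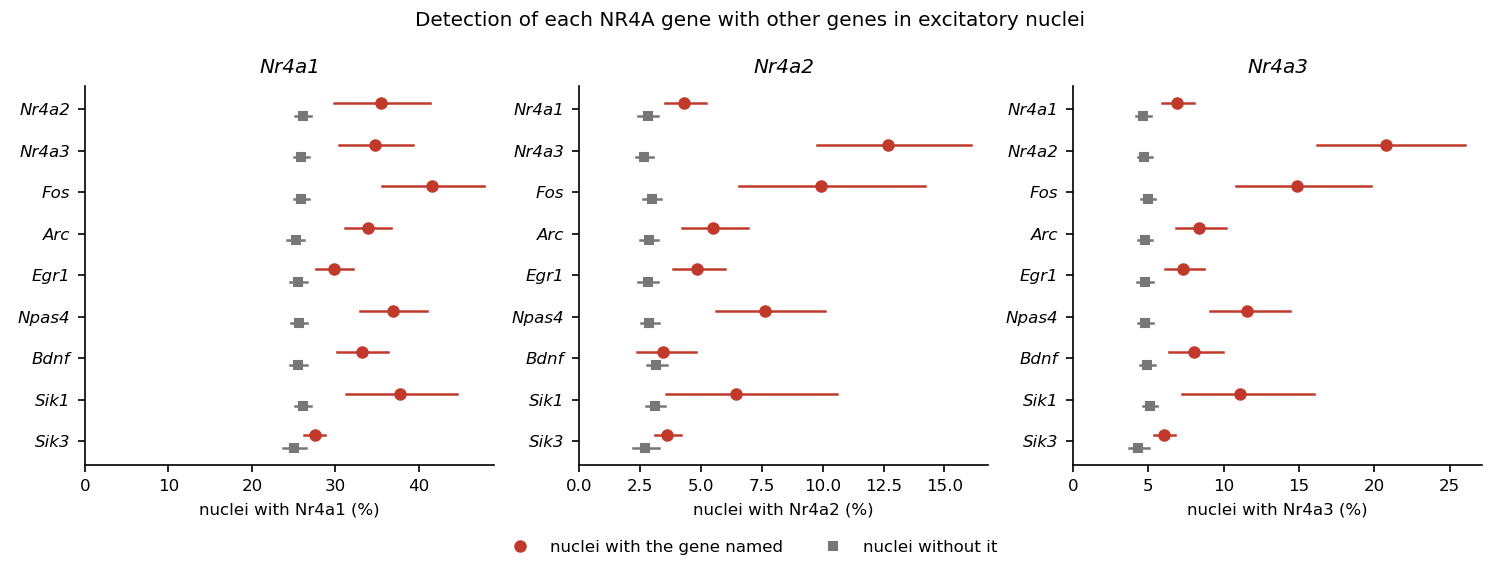
Share of excitatory nuclei, thinned to 5000 UMIs, in which each NR4A gene was detected (x axis, %) among nuclei with (red) and without (grey) the gene named on the y axis; lines are exact 95% counting intervals. For Nr4a3 the share is 20.8% with Nr4a2 against 4.74% without it.

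After sleep deprivation, excitatory neurons had less Nr4a3 and Nr4a2 and about the same level of Nr4a1. Nr4a3 was at 8.59 CPM (7.56 to 9.72) in the Sleep-deprivation library against 13.7 CPM (12.4 to 15) in the Ad-lib-sleep library, with 13.9 CPM in the AAV-SIK3-Ex13del and 11.7 CPM in the AAV-SIK3-WT library. The ratio was 0.629 (0.536 to 0.737), a log2 difference of -0.67, and the Sleep-deprivation library was the lowest of the 4. Nr4a2 was at 7.01 CPM (6.08 to 8.04) in the Sleep-deprivation library against 9.79 CPM (8.72 to 11) in the Ad-lib-sleep library, a ratio of 0.716 (0.597 to 0.858). Nr4a1 was at 66.8 CPM (63.8 to 69.8) against 64.2 CPM (61.4 to 67.1), a ratio of 1.04 (0.977 to 1.11). Past a fold of 1.5, 1 of the 3 members was lower and none higher, where 3.55% of 12012 genes averaging 5 CPM or more were lower and 1.68% higher. That member was Nr4a3, for which 1 Ad-lib-sleep nucleus held 17 of 424 UMIs. Counting at most 3 UMIs per nucleus gave 8.21 against 12.3 CPM of Nr4a3, just short of a fold of 1.5. Markers of other cells differed too. The 8 endothelial markers, none of them at 0 and in a cell type that holds Nr4a2, summed to 21.8 CPM in excitatory neurons of the Sleep-deprivation library and 38.1 CPM of the Ad-lib-sleep library (24.0 and 29.6 CPM in the AAV-SIK3-Ex13del and AAV-SIK3-WT libraries). The part of these cells in the ratios was not tested. After thinning to 2000 UMIs per nucleus the ratios were 0.641 (0.421 to 0.952) for Nr4a3 and 0.638 (0.380 to 1.03) for Nr4a2.

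By subclass, the ratios were as follows, with no test between subclasses. In layer 6 intratelencephalic neurons Nr4a2 was at 4.22 CPM (2.18 to 7.38) in the Sleep-deprivation library against 23.4 CPM (18.1 to 29.6) in the Ad-lib-sleep library, with 17.5 CPM in the AAV-SIK3-Ex13del and 10.9 CPM in the AAV-SIK3-WT library. That is 12 UMIs against 68, a ratio of 0.181 (0.0891 to 0.337), and 0.133 (0.00315 to 0.875) after thinning. In the Ad-lib-sleep library 1 nucleus held 12 of the 68 UMIs, and counting at most 3 UMIs per nucleus gave 16.5 CPM. Nr4a3 in the same cells was at 11.6 CPM (8.0 to 16.3) against 27.8 CPM (22.1 to 34.6), a ratio of 0.417 (0.27 to 0.633). Here too 1 Ad-lib-sleep nucleus stood out, with 17 of 81 UMIs, and the capped level was 20.3 CPM. Nr4a1 was at 35.2 CPM against 55.0 CPM, a ratio of 0.640 (0.494 to 0.827), and its thinned ratio was 1.06 (0.546 to 1.98). All 3 members were past a fold of 1.5 lower in this subclass, where 8.46% of 11826 genes were lower. The Sleep-deprivation library was the lowest of the 4 for each member.

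The layer 6 intratelencephalic cluster itself differed in its markers between the libraries. Its 8 own markers, none at 0, summed to 1074 CPM in the Sleep-deprivation library and 1605 CPM in the Ad-lib-sleep library (1322 and 1480 CPM in the AAV-SIK3-Ex13del and AAV-SIK3-WT libraries). The layer 6 corticothalamic list summed to 442 and 339 CPM. The list of layer 6 Car3 and claustrum cells, another Nr4a2-rich type, summed to 196 and 192 CPM over 7 measured markers, with Car3 at 0 in all 4 libraries. Markers of this list went both ways, with Oprk1 at 29.9 against 46.0 CPM and Synpr at 24.3 against 9.28 CPM. Nuclei of this cluster with at least 2 of those markers at 2000 UMIs numbered 31, and Nr4a2 was detected in 6.45% (0.791 to 21.4) of them against 2.03% of the 691 with none. The part of these marker differences in the ratios was not tested.

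Layer 6 corticothalamic neurons, the cells that project back to thalamus, had the same direction for Nr4a2 and Nr4a3. Nr4a3 was at 10.8 CPM (8.18 to 13.9) in the Sleep-deprivation library against 21.0 CPM (17.6 to 24.8) in the Ad-lib-sleep library, a ratio of 0.512 (0.370 to 0.702). Nr4a2 was at 8.54 CPM (6.25 to 11.4) against 13.3 CPM (10.7 to 16.5), a ratio of 0.640 (0.438 to 0.925). Both were past a fold of 1.5 lower, as were 5.16% of 11740 genes, while Nr4a1 was at 64.2 and 69.0 CPM (ratio 0.931, 0.807 to 1.07). In the Ad-lib-sleep library 9 nuclei held 38 of the 87 Nr4a2 UMIs. With at most 3 UMIs counted per nucleus, Nr4a2 was at 8.17 against 11.04 CPM, short of a fold of 1.5. Nr4a3 was then at 10.58 against 18.56 CPM, still past it. The thinned ratios were 0.462 (0.137 to 1.25) for Nr4a2 and 0.659 (0.313 to 1.29) for Nr4a3, both with intervals that include no difference. In layer 6b Nr4a2 was at 103 CPM against 90.6 CPM, a ratio of 1.14 (0.831 to 1.56). The Sleep-deprivation value rests on few nuclei, since 2 of 50 held 30 of the 83 UMIs. When at most 3 UMIs per nucleus were counted the levels were 62.1 CPM in the Sleep-deprivation library and 81.02 CPM in the Ad-lib-sleep library, so the direction turned. Nr4a3 in layer 6b was at 16.1 CPM against 32 CPM on 13 and 30 UMIs, a ratio of 0.505 (0.242 to 0.998), where 15.5% of 11784 genes were 1.5-fold lower.

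Nr4a3 in layer 4/5 intratelencephalic neurons was at 3.09 CPM in the Sleep-deprivation library against 6.19 CPM in the Ad-lib-sleep library, on 8 and 20 UMIs, a ratio of 0.50 (0.19 to 1.18), and its ratio in layer 2/3 intratelencephalic neurons was 0.809 (0.528 to 1.23). In near-projecting neurons, which had the highest mean of Nr4a3, the gene was at 35.3 CPM in the Sleep-deprivation library against 32.7 CPM in the Ad-lib-sleep library, a ratio of 1.08 (0.643 to 1.79). In layer 5 intratelencephalic neurons Nr4a1 was at 92.1 CPM (84.3 to 100) against 67.6 CPM (61.0 to 74.7), a ratio of 1.36 (1.19 to 1.56), and the Sleep-deprivation library was the highest of the 4. This ratio did not reach 1.5, as 3.26% of 11813 genes did in the same direction. Thinned to 2000 UMIs it was 1.52 (1.07 to 2.14). Nr4a1 in layer 5 extratelencephalic neurons, its highest subclass, was at 98.6 CPM against 101 CPM (ratio 0.979, 0.826 to 1.16). Inhibitory neurons as a class had 23.4 against 24.1 CPM of Nr4a1, 2.62 against 3.89 CPM of Nr4a2 and 3.63 against 3.03 CPM of Nr4a3, with intervals of the ratios that all include 1. Thinned shares of inhibitory nuclei with Nr4a2 or Nr4a3 were at most 1.14%, near the astrocyte level.

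**Figure D4:**
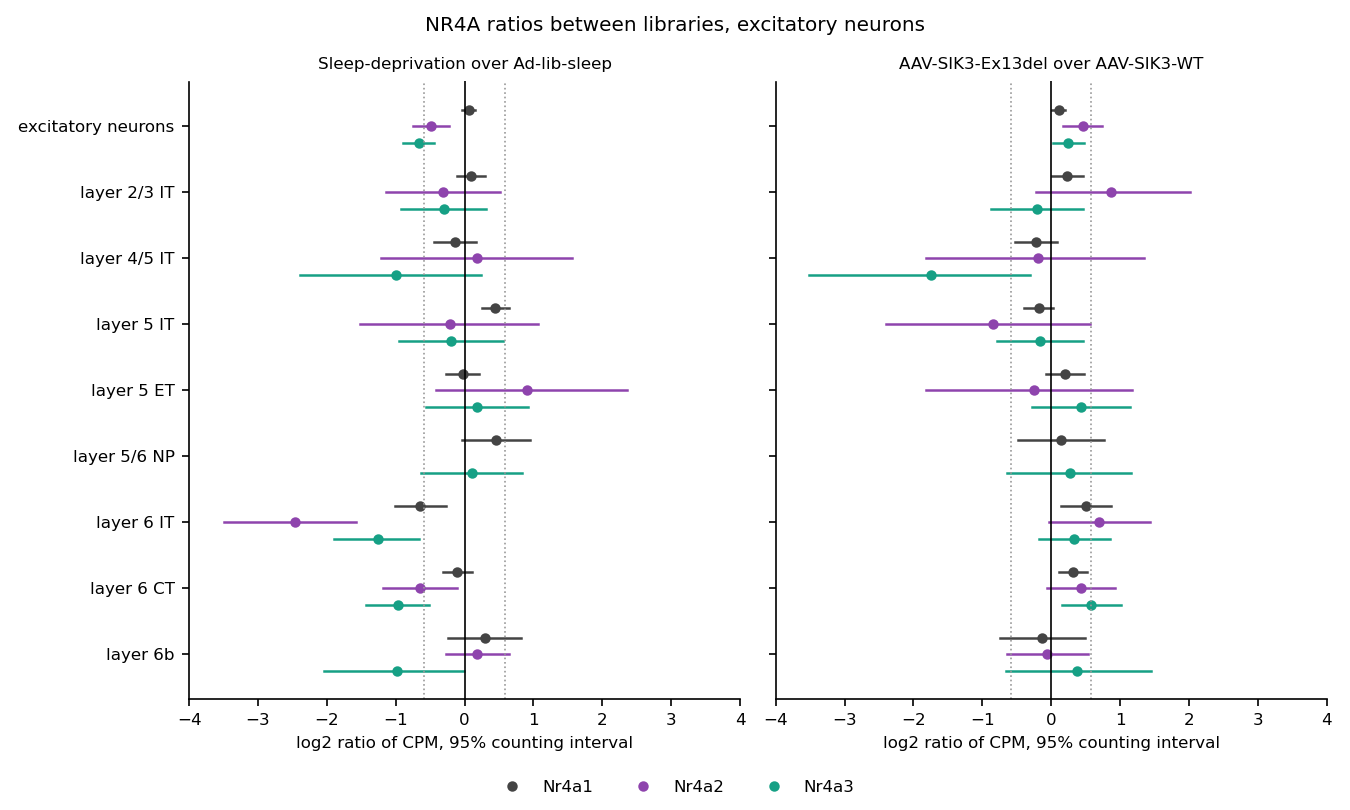
Log2 ratios of CPM between libraries for the 3 NR4A genes in excitatory neurons and their subclasses, Sleep-deprivation over Ad-lib-sleep on the left and AAV-SIK3-Ex13del over AAV-SIK3-WT on the right; lines are exact 95% counting intervals, dotted lines mark a fold of 1.5, and ratios resting on very few UMIs are not drawn. On the left, Nr4a2 and Nr4a3 lie at -2.47 and -1.26 in layer 6 intratelencephalic neurons.

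With the Ex13del form of SIK3, all 3 members were somewhat higher in excitatory neurons than with wild-type SIK3. Nr4a2 was at 9.11 CPM (7.95 to 10.4) in the AAV-SIK3-Ex13del library against 6.63 CPM (5.72 to 7.63) in the AAV-SIK3-WT library, a ratio of 1.37 (1.13 to 1.68). Nr4a3 was at 13.9 CPM (12.4 to 15.4) against 11.7 CPM (10.5 to 13), a ratio of 1.19 (1.02 to 1.39). Nr4a1 was at 69.8 CPM (66.6 to 73.2) against 64.6 CPM (61.7 to 67.6), a ratio of 1.08 (1.01 to 1.15). None reached a fold of 1.5, where 1.09% of 12028 genes were higher and 0.0499% lower, and the median log2 difference of all genes was 0.04. The Nr4a2 ratio was 0.987 (0.612 to 1.58) after thinning to 2000 UMIs.

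Subclasses differed in size and direction, with no test between them. In layer 6 intratelencephalic neurons Nr4a1 was at 60.7 CPM (51.4 to 71.3) in the AAV-SIK3-Ex13del library against 42.8 CPM (35.2 to 51.6) in the AAV-SIK3-WT library, a ratio of 1.42 (1.10 to 1.83), and 1.005 (0.555 to 1.81) after thinning. Nr4a2 was at 17.5 against 10.9 CPM, a ratio of 1.61 (0.978 to 2.69) where 6.2% of 11705 genes were 1.5-fold higher. In layer 6 corticothalamic neurons Nr4a3 was at 21.5 CPM (17.7 to 25.8) against 14.3 CPM (11.4 to 17.8), just under a fold of 1.5 (1.12 to 2.02), and 2.55% of 11743 genes passed it. The thinned ratio was 1.26 (0.669 to 2.36). In the AAV-SIK3-Ex13del library 1 nucleus held 14 of the 112 UMIs, and counting at most 3 UMIs per nucleus gave 18.8 against 13.6 CPM. Nr4a1 there was at 84.7 against 68.0 CPM (ratio 1.25, 1.09 to 1.43). In layer 6b Nr4a2 was at 81.5 against 84.6 CPM (ratio 0.964, 0.641 to 1.45). In layer 2/3 intratelencephalic neurons the ratios were 1.18 (1.01 to 1.37) for Nr4a1 and 1.83 (0.858 to 4.03) for Nr4a2, and in layer 5 intratelencephalic neurons 0.881 (0.764 to 1.01) and 0.557 (0.19 to 1.47). Nr4a3 in layer 4/5 intratelencephalic neurons was at 2.23 against 7.49 CPM on 5 and 21 UMIs, a ratio of 0.298 (0.0877 to 0.811), and 0.713 (0.0121 to 13.7) after thinning. Inhibitory neurons had 26.8 against 26.7 CPM of Nr4a1, 4.21 against 4.02 CPM of Nr4a2 and 4.21 against 2.74 CPM of Nr4a3, the last on 22 and 17 UMIs.

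Few nuclei carried much vector RNA, so nuclei were also split by vector UMIs, with a threshold of 3 added after the data were seen. Excitatory nuclei with no vector UMI (1670 in the AAV-SIK3-Ex13del and 2253 in the AAV-SIK3-WT library) had 9.74 against 6.62 CPM of Nr4a2, 12.8 against 11.1 CPM of Nr4a3 and 71.4 against 66.8 CPM of Nr4a1. In CPM, the Nr4a2 difference between the libraries was thus no smaller in nuclei without a vector UMI. After thinning, however, the shares of these nuclei with Nr4a2 were similar. They were 20 of 1619 nuclei in the AAV-SIK3-Ex13del library and 27 of 2200 in the AAV-SIK3-WT library. Since a vector UMI does not mark a nucleus as transduced, the part of the vector in these values was not tested. Nuclei with at least 3 vector UMIs numbered 104 and 94. Their Nr4a3 level was 30.3 CPM (21.2 to 41.9) in the AAV-SIK3-Ex13del library against 14.2 CPM (8.13 to 23.1) in the AAV-SIK3-WT library, and their Nr4a2 level 1.68 against 13.3 CPM on 2 and 15 UMIs. The subclasses among them differed: 67 of the AAV-SIK3-Ex13del nuclei but 20 of the AAV-SIK3-WT nuclei were layer 5 intratelencephalic. Within layer 5 intratelencephalic neurons, nuclei with at least 3 vector UMIs had 21.4 CPM (12.5 to 34.2) of Nr4a3 against 4.75 CPM (2.66 to 7.83) in nuclei with none in the AAV-SIK3-Ex13del library. In the AAV-SIK3-WT library the values were 29.5 CPM (11.9 to 60.8) and 7.65 CPM (5.33 to 10.6). Within this subclass, vector-rich nuclei thus had more Nr4a3 with either form of SIK3, on 17 and 7 UMIs, and the intervals of the SIK3 forms overlapped. Over all excitatory nuclei the vector-rich and vector-free levels were 30.3 and 12.8 CPM in the AAV-SIK3-Ex13del library. In the AAV-SIK3-WT library they were 14.2 CPM (8.13 to 23.1) and 11.1 CPM (9.81 to 12.6), with overlapping intervals.

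Striatal projection neurons differed between the libraries in Nr4a1, on few nuclei. These are the GABAergic output cells of the striatum, and Nr4a1 is known there as a gene that follows dopamine signals. Nr4a1 was at 63.1 CPM (54.3 to 73.0) in the Sleep-deprivation library against 38.9 CPM (30.4 to 49) in the Ad-lib-sleep library over 243 and 294 nuclei, a ratio of 1.62 (1.23 to 2.16). It was at 28 CPM (22.7 to 34.1) in the AAV-SIK3-Ex13del library against 15.5 CPM (9.93 to 23.1) in the AAV-SIK3-WT library over 417 and 214 nuclei, a ratio of 1.81 (1.15 to 2.95). Both ratios passed a fold of 1.5, as did 5.38% of 11509 genes and 6.84% of 11470 genes in that direction. After thinning they were 1.18 (0.682 to 2.05) and 1.88 (0.795 to 5.13). Nr4a3 was at 19.7 against 19.995 CPM in the Sleep-deprivation and Ad-lib-sleep libraries. In the AAV-SIK3-Ex13del and AAV-SIK3-WT libraries it was at 8.48 against 3.87 CPM on 30 and 6 UMIs (ratio 2.19, 0.896 to 6.43). Nr4a2 had 1 to 6 UMIs per library and is not compared. How much striatum each dissection took in, and from where, is not given and cannot be told apart from the groups.

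The striatal subclasses went opposite ways after sleep deprivation. In D1 neurons of the direct pathway, Nr4a1 was at 74.3 CPM (58.9 to 92.5) in the Sleep-deprivation library against 16.5 CPM (8.80 to 28.3) in the Ad-lib-sleep library, over 74 and 112 nuclei, with 14.5 CPM in the AAV-SIK3-Ex13del and 6.74 CPM in the AAV-SIK3-WT library. The ratio was 4.50 (2.49 to 8.81), and 2.12 (0.579 to 8.47) after thinning, where 10.2% of 11394 genes were 1.5-fold higher and 23.3% lower. In the Sleep-deprivation library 3 nuclei held 34 of the 80 UMIs, and counting at most 3 UMIs per nucleus left 46.5 CPM, still the highest of the 4. Nr4a3 in D1 neurons was at 36.2 CPM (25.8 to 49.5) against 8.90 CPM (3.58 to 18.3), a ratio of 4.07 (1.80 to 10.8) and 6.05 (0.599 to 298) after thinning, with 7.96 and 1.35 CPM in the AAV-SIK3-Ex13del and AAV-SIK3-WT libraries. In D2 neurons of the indirect pathway the Ad-lib-sleep library was the highest: Nr4a3 was at 9.93 CPM (5.29 to 17.0) in the Sleep-deprivation library against 27.4 CPM (17.2 to 41.4), a ratio of 0.363 (0.168 to 0.753), where 20% of 11383 genes were 1.5-fold lower. Nr4a1 there was at 43.5 against 61.0 CPM (ratio 0.714, 0.479 to 1.07). The 6 D1 markers summed to 547 against 448 CPM in D1 neurons, and the 7 markers of striosomes, a striatal compartment, to 376 against 219 CPM. The part of either in the ratios, and the difference between D1 and D2 neurons, was not tested.

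Other activity genes did not move as one block with the receptors. After sleep deprivation the rapid immediate early genes of excitatory neurons went both ways: of 13 measured of 19 listed, 4 were higher. Past a fold of 1.5, 2 were higher and 4 lower, where 1.68% and 3.55% of 12012 genes were. The median difference of log2(CPM + 1), the scale of all list medians, was -0.25 against -0.03 over all genes. Arc, which controls AMPA receptor uptake at synapses, was at 42.6 CPM in the Sleep-deprivation library against 22.3 CPM in the Ad-lib-sleep library (ratio 1.91, 1.74 to 2.09), and the transcription factor Egr3 at 30.9 against 17.9 CPM. On the lower side stood Btg2 at 6.87 against 20.6 CPM (ratio 0.333, 0.283 to 0.391) and Npas4 at 12.6 against 20.5 CPM. Fos was at 5.53 against 6.76 CPM, a ratio of 0.818 (0.662 to 1.01), and Egr1 at 38.5 against 47.0 CPM. Nr4a2 and Nr4a3, with ratios of 0.716 and 0.629, stood nearer to Npas4 at 0.617 than to Arc.

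**Figure D5:**
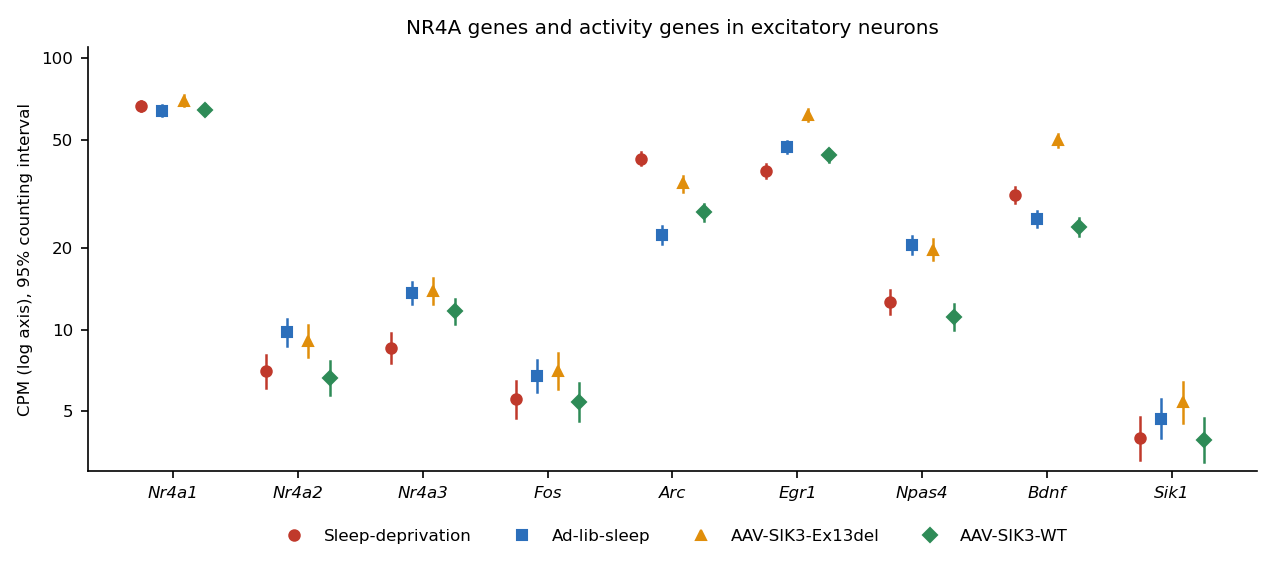
Levels of the NR4A genes and of 6 activity or pathway genes in excitatory neurons of the 4 libraries, in CPM on a log axis, with exact 95% counting intervals. Arc is highest in the Sleep-deprivation library at 42.6 CPM, while Nr4a3 is lowest there at 8.59 CPM.

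With Ex13del SIK3 the immediate early genes leaned one way. All 13 measured members were higher in the AAV-SIK3-Ex13del library, 2 of them past a fold of 1.5, where 1.09% of 12028 genes were. The median log2 difference was 0.33 against 0.04 over all genes. Npas4 was at 19.7 CPM against 11.1 CPM in the AAV-SIK3-WT library (ratio 1.77, 1.54 to 2.05) and Jun, a subunit of AP-1, at 14.3 against 8.80 CPM, while Junb at 37.4 against 36.0 CPM and Egr3 at 21.4 against 20.2 CPM differed least. Fos was at 7.06 against 5.42 CPM, Arc at 34.5 against 27.0 CPM and Egr1 at 62.0 against 43.9 CPM. The 3 receptors had ratios of 1.08 to 1.37 beside these, so Nr4a2 stood near Egr1 (1.41) and Nr4a1 near Junb (1.04).

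CREB and CRTC target genes, which share a regulator with the receptors, had 8 of 18 measured members higher after sleep deprivation (1 past a fold of 1.5 each way, where 1.68% of all genes were higher and 3.55% lower, median -0.07 against -0.03 over all genes) and 12 of 17 higher with Ex13del SIK3 (5 past a fold of 1.5 higher and none lower, where 1.09% and 0.0499% of all genes were, median 0.24 against 0.04). After sleep deprivation the neuropeptide precursors Vgf (50.4 against 29.4 CPM) and Scg2 (41.7 against 28.3 CPM) were at the top, with Sst, an interneuron peptide, at 14.7 against 32.3 CPM and the phosphatase Dusp1 at 9.27 against 12.9 CPM at the bottom. Bdnf, a neurotrophin, was at 31.4 against 25.6 CPM and the kinase Sik1, itself a CREB target, at 3.98 against 4.70 CPM. With Ex13del SIK3 the synaptic protein Nptx2 was at 28.4 CPM in the AAV-SIK3-Ex13del library against 8.04 CPM in the AAV-SIK3-WT library (ratio 3.53, 3.04 to 4.12), Gadd45g at 7.19 against 3.14 CPM and Bdnf at 49.8 against 23.9 CPM. Sik1 was at 5.39 against 3.93 CPM, and Sst (ratio 0.831) and the convertase Pcsk1 (0.858) were lowest. Dusp1 stands in this list and among the immediate early genes, and Sik1 here and in the next.

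Most kinases and cofactors upstream of the receptors differed little. Of 20 measured SIK, LKB1, CRTC, class IIa HDAC and MEF2 regulators, 11 were higher after sleep deprivation and 7 with Ex13del SIK3, none past a fold of 1.5, with medians of 0.03 and -0.02. Sik3 itself was at 174 CPM in the Sleep-deprivation library against 147 CPM in the Ad-lib-sleep library, and at 192 CPM in both AAV libraries, a level that does not check the Ex13del form. After sleep deprivation Sik2 (ratio 1.32) and Camk2a (1.29) were highest and Crtc2 (0.730) and Hdac9 (0.824) lowest. With Ex13del SIK3, Hdac4 (1.15) and Crtc1 (1.06) were highest and Stk11, which encodes LKB1 (0.819), and Hdac7 (0.846) lowest. Of 8 measured retinoid X receptor partners and corepressors, 5 were higher in each comparison, with medians of 0.12 and 0.04. After sleep deprivation 1 of them, not named here, was past a fold of 1.5 higher, where 1.68% of 12012 genes were. None was past it with Ex13del SIK3. After sleep deprivation the corepressor subunit Rcor2 had a ratio of 1.23 and Trim28 had the lowest, 0.948. With Ex13del SIK3 the ratios were 0.954 for Trim28, 1.09 for Rxrb and 1.12 for Pias4.

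Among genes reported downstream, endoplasmic reticulum chaperones, which NR4A receptors have been reported to control in mouse hippocampus, had 10 of 11 measured members higher after sleep deprivation (median 0.28 against -0.03 over all genes) and 10 of 11 with Ex13del SIK3 (median 0.06, near the 0.04 of all genes), none past a fold of 1.5. Pdia4 (10.03 CPM in the Sleep-deprivation library against 6.92 CPM in the Ad-lib-sleep library) and Pdia3 (50.9 against 35.5 CPM), both protein disulfide isomerases, were highest, and Manf (ratio 0.860) and Hyou1 (1.04) lowest. With Ex13del SIK3, Pdia3 (1.13) and Hspa5 (1.09) were highest and Hyou1 (0.943) and Manf (1.02) lowest. Of the dopaminergic genes reported as Nr4a2 targets, 3 of 9 were measured: Slc18a2, Aldh1a1 and Vip had ratios of 0.794, 0.708 and 0.696 after sleep deprivation and 0.999, 0.894 and 0.823 with Ex13del SIK3. Vip is a leading gene of the Vip interneurons, and the part of RNA from other cells in these ratios was not tested. Of 18 measured other nuclear receptors, 9 were higher after sleep deprivation and 6 with Ex13del SIK3, with medians of 0.02 and -0.03. The retinoic acid receptor Rara was the only one past a fold of 1.5 in either comparison. Over all genes, 1.68% were past it higher after sleep deprivation. Rara was at 10.1 CPM in the Sleep-deprivation library against 4.83 CPM in the Ad-lib-sleep library (ratio 2.08, 1.71 to 2.55). Thra followed at 1.27, and Nr2f1 (0.689) and Rorb (0.774) were lowest. With Ex13del SIK3, Nr1d2 (1.15) and Ppard (1.10) were highest and Rorb (0.879) and Rarb (0.881) lowest.

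In striatal projection neurons the immediate early genes went both ways after sleep deprivation. Of 14 measured members 6 were higher in the Sleep-deprivation library. Past a fold of 1.5, 1 was higher and 5 were lower, where 5.38% and 15% of 11509 genes were. The median log2 difference was -0.43 against -0.12 over all genes, beside ratios of 1.62 for Nr4a1 and 0.984 for Nr4a3. Fos was at 6.90 against 13.5 CPM, Egr1 at 76.2 against 64.3 CPM, Npas4 at 35.9 against 47.6 CPM and Arc at 42.8 against 29.7 CPM. With Ex13del SIK3, 8 of 10 measured members were higher (median 0.39 against 0.01), with Egr1 at 51.4 CPM in the AAV-SIK3-Ex13del library against 34.2 CPM in the AAV-SIK3-WT library and Npas4 at 23.2 against 12.9 CPM. Sleep-deprivation and Ad-lib-sleep striatal neurons were above both AAV libraries for Nr4a1, Nr4a3, Fos, Egr1, Npas4 and Arc.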

How the data were processed

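Nuclei of 4 libraries were analysed from filtered count matrices that the authors deposited, whole-number UMI counts per gene and barcode with no normalization. Cell Ranger 6.1.2 and the mm10 genome are named in the submitters' processing notes; whether intronic reads were counted is not given in the sources used here. Barcodes were dropped below 500 genes or from 5% mitochondrial UMIs upward, and doublets were removed by Scrublet scores at an expected rate of 0.8% per 1000 barcodes, because automatic thresholds called 0, 428, 4 and 0. Clustering (scanpy 1.11.5, Leiden resolution 1, 2000 variable genes, 30 components, 15 neighbours, values centred by library) left out 120 genes, among them the members and those list genes that are no cell type markers. Clusters were named from fixed markers with thresholds set after seeing the data, so each name means "like" that type, and the layer 5 intratelencephalic cluster held as many layer 4/5 markers (0.571 of each list).

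Counts were summed per library and subclass and given as CPM, with exact intervals from scipy 1.17.1. Shares used nuclei thinned to 2000 UMIs, or 5000 for co-detection. Each comparison used genes averaging 5 CPM or more, and a fold of 1.5 marks a difference without a test, since each group is 1 library. The intervals cover counting error only. The members and the gene lists were chosen with earlier results of these data known. Named genes are the members, the 5 genes of most like pattern, the 2 highest and 2 lowest of each list, and Fos, Arc, Egr1, Npas4, Bdnf, Sik1 and Sik3; a few genes that this rule names are not reported here. The ratios, their intervals and the fold rule were tested on simulated Poisson counts, the model that the intervals assume. Other steps were not simulated. Alternatives included TMM factors (edgeR 4.0.16), size factors (DESeq2 1.42.0), thinning, other filters, other clustering, and nuclei without vector UMIs.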

Additional observations from a re-analysis of the deposited data

Results flagged for a closer look

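Nr4a3 went opposite ways in the striatal subclasses between the Sleep-deprivation and Ad-lib-sleep libraries. The log2 difference was 2.03 in D1 neurons, on 39 and 7 UMIs, and -1.46 in D2 neurons, on 13 and 22 UMIs, so the subclasses lay 3.49 apart. With 1 library per group, the difference between the subclasses was not tested.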

How the results depend on the processing

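Of 191 values recomputed for 23 results, 184 were counted as the same as the reported value and 172 kept its sign. The same meant within the counting interval for library ratios of neuron classes. For ratios of the highest to the next subclass it meant within the standard deviation over libraries, and for shares of genes within a fold of 1.5. A ratio past a fold of 1.5 that changed sign was counted as reversed. Library ratios within subclasses were not among the 23 results. Thinning every nucleus to 2000 UMIs gave log2 differences of -0.019 in place of 0.46 for Nr4a2 in excitatory neurons (AAV-SIK3-Ex13del minus AAV-SIK3-WT), -0.87 in place of 0.26 for Nr4a3 in inhibitory neurons (Sleep-deprivation minus Ad-lib-sleep), and 0.24 in place of 0.70 for Nr4a1 in striatal projection neurons (Sleep-deprivation minus Ad-lib-sleep). Counting at most 3 UMIs per nucleus, chosen after seeing the data, gave -0.077 in place of 0.06 for Nr4a1 in excitatory neurons (Sleep-deprivation minus Ad-lib-sleep). Nuclei with 0 vector UMIs gave 0.42 in place of -0.61 for Nr4a2 in striatal projection neurons (AAV-SIK3-Ex13del minus AAV-SIK3-WT), on 3 UMIs or fewer per library. With a mean of at least 20 CPM, 3.04% in place of 5.23% of genes passed a fold of 1.5 after sleep deprivation, and 0.299% in place of 1.14% with Ex13del SIK3. The causes were not tested. The highest subclass over the next differed by 2.58 to 2.74 (log2) for Nr4a2 under every alternative run, while for Nr4a3 the value was 0.26 and, thinned, -0.11. Thinning gave no value for Nr4a2 in 3 comparisons where a library had 0 UMIs left. No paired analysis was possible because each group is 1 library, and for the same reason no library could be left out. Few UMIs limit Nr4a2 and Nr4a3 outside layer 6, and Nr4a2 in striatum.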

Other observations

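Nr4a2 was also present in vessel cells. Endothelial cells had 20.8 CPM in the Sleep-deprivation library against 35.9 CPM in the Ad-lib-sleep library, and 17.4 CPM in the AAV-SIK3-Ex13del library against 20.2 CPM in the AAV-SIK3-WT library. Pericytes and smooth muscle cells had 19.0 against 43.7 CPM, and 26.6 against 24.4 CPM, in the same pairs. Fibroblasts of the meninges and vessels had 3.14 CPM (0.0794 to 17.5) in the Sleep-deprivation library against 108 CPM (66.8 to 165) in the Ad-lib-sleep library, on 1 and 21 UMIs. In the AAV-SIK3-Ex13del and AAV-SIK3-WT libraries they held 1 UMI each. Nr4a1 in these fibroblasts was at 25.1 CPM against 97.6 CPM in the Sleep-deprivation and Ad-lib-sleep libraries, so the Ad-lib-sleep library was high for both genes. Oligodendrocyte precursors had 26.7 to 42.6 CPM of Nr4a1 over the 4 libraries, and astrocytes 5.76 to 13.9 CPM. The unnamed cluster of shallow nuclei had 21.3 CPM of Nr4a2 in the Sleep-deprivation library against 8.73 CPM in the Ad-lib-sleep library.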
